A study of Mus musculus with 4 samples.

Results

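The MYC, MAX and MXD network was followed as 10 genes, taken by gene symbol from the deposited count table. These are Myc, Mycn and Mycl, Max, the MXD family genes Mxd1, Mxd3, Mxd4 and Mxi1, and the larger MAX partners Mnt and Mga. All 10 were among the 24411 symbols of the table, and all 10 were among the 13507 genes that passed the filter on low counts. The libraries came from pro-B cells, early B cell precursors that had been sorted from bone marrow as cells carrying B220, CD43 and HSA (heat-stable antigen). The knockout group was 2 mice with floxed Tnpo3 alleles and mb1Cre (Tnpo3fl/fl mb1Cre, mice 51 and 63). The control group was 2 mice with intact Tnpo3 and the same Cre (Tnpo3+/+ mb1Cre, mice 55 and 69). All 4 mice were C57BL/6, and their ages are not stated in the labels used here. The controls thus also carried mb1Cre, in which the Cd79a locus drives the recombinase in B-lineage cells. Tnpo3 encodes transportin 3, a nuclear import receptor for serine- and arginine-rich proteins.

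MYC proteins are transcription factors that bind DNA as dimers with MAX, most often at the E-box CACGTG, and raise the expression of genes for ribosome production, metabolism and cell division. MXD proteins, MNT and MGA also dimerise with MAX and occupy the same kind of site, where MXD proteins and MNT recruit SIN3 and histone deacetylases and repress. In B cell development MYC drives the growth and division of precursors, and MXD proteins are best known from cells that leave the cycle and differentiate.

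Each library held 26211372 to 40647384 counts, and the tests measure the spread between mice, with n = 2 per genotype. Tnpo3, the targeted gene, was at 79.7 and 68.8 CPM (a count relative to the TMM-normalized size of its library) in knockouts 51 and 63, against 159 and 148 CPM in controls 55 and 69. Counts over the whole gene do not tell whether this remainder came from undeleted cells or from exons that the deletion leaves in place, and the exons of Tnpo3 overlap those of the antisense gene Irf5. The B-lineage label was checked on 10 marker genes, all detected in every library. Their summed level was 3314 and 2609 CPM in the knockouts, against 8257 and 10065 CPM in the controls, and 7 of the 10 fell. Genes listed for other cell types also moved with genotype. Of 10 dendritic cell genes 9 rose, and their sum was 8154 and 10964 CPM in the knockouts, against 1866 and 948 CPM in the controls. In controls 55 and 69 its largest parts were Ly6d (609 and 280 CPM), Irf8 (607 and 318 CPM) and Tcf4 (257 and 218 CPM). Whether these transcripts came from dendritic cells or from the pro-B cells themselves was not tested, so the sum is not a count of dendritic cells. Of 8 natural killer cell genes 6 rose in edgeR and 1 in limma-voom, and their sum was 739 and 226 CPM in the knockouts, against 32.7 and 27.6 CPM in the controls. Of 8 T cell genes 4 rose (Thy1, Cd247, Gata3 and Cd3g), with a sum over all 8 of 290 and 178 CPM in the knockouts, against 52.9 and 76.2 CPM in the controls. Lck, at 126 and 83.7 CPM in knockouts 51 and 63, and Cd3e, at 5.99 and 0.631 CPM, did not pass. All 10 neutrophil and granulocyte genes fell, and their sum was 208 and 51.8 CPM in the knockouts, against 4881 and 3728 CPM in the controls, and 5 of 6 tested erythroid genes fell. The sum of the 8 listed erythroid genes was 2.13 and 5.87 CPM in the knockouts, against 65.7 and 56.9 CPM in the controls, with both globin genes at 0 in every library. In these bulk samples, fewer cells of a type and less RNA per cell cannot be told apart.

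Of the 10 network genes, 1 rose in the knockout (Mycl) and 3 fell (Mxd3, Mxd4 and Mxi1), by edgeR's quasi-likelihood test at a false discovery rate of 0.05 over all genes tested. Among all genes tested, 11.3% were called higher and 10.9% lower. The other 6 members did not pass. The median log2 fold change of the 10 was -0.39, against -0.02 for all genes tested. The knockout libraries lay above both controls for 3 members and below both controls for 5, where 33.0% and 34.6% of all tested genes did so. The genotypes thus did not overlap for 8 of 10 members, against 67.5% of all tested genes. Without knockout 51 only Mxd4 among the MXD genes passed, and without knockout 63 no MXD gene passed (0 of 4), while Mycl passed in each fit that left out a library.

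**Figure D1:**
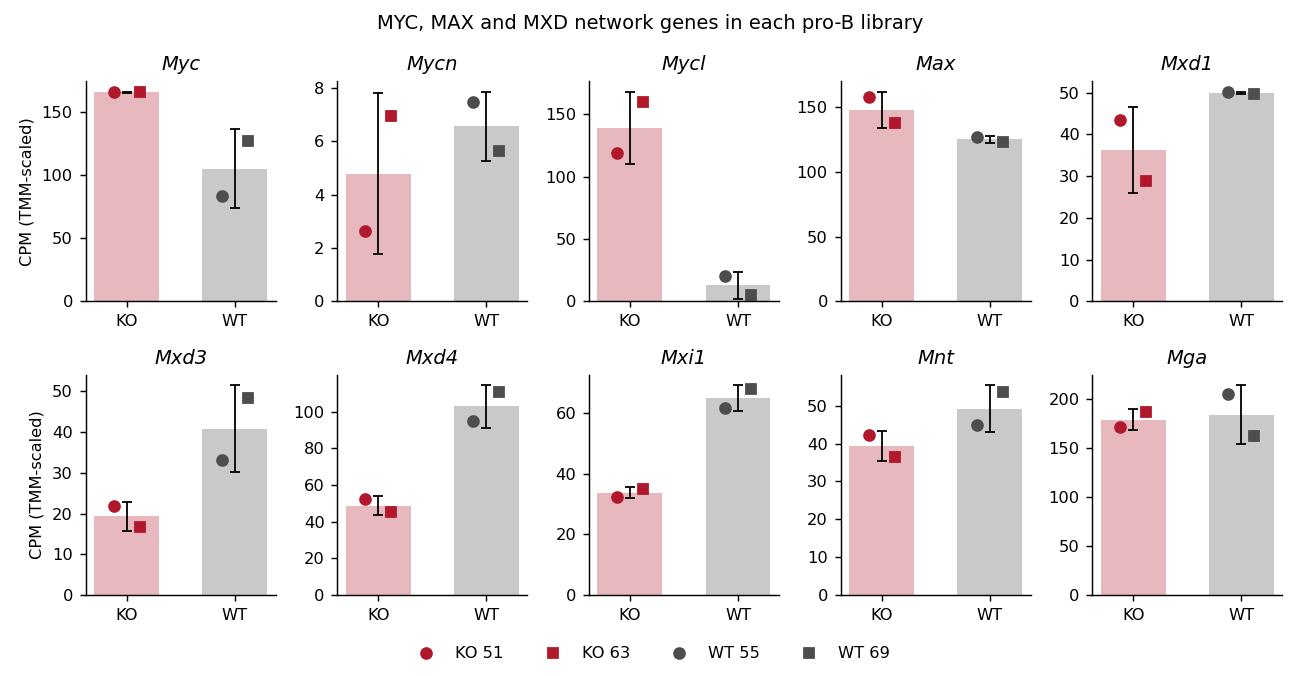
Level of each network gene in CPM (TMM-scaled, linear axes that start at 0) in the knockout (KO, red) and control (WT, grey) libraries. Points are single libraries, bars are means and error bars are the SD over n = 2. Mycl is far higher in both knockouts, and Mxd3, Mxd4 and Mxi1 are lower in both.

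The activators were described first. Mycl, which encodes L-MYC and is known in mice for its expression in dendritic cells, had the largest fold change of the network. Mycl was at 119 and 160 CPM in knockouts 51 and 63, against 20.6 and 5.07 CPM in controls 55 and 69. The genotypes did not overlap, and the controls differed from each other by more than the knockouts did on a ratio scale. The fitted log2 fold change was 3.43 ± 0.65 (SE; edgeR adjusted p = 0.0223), a 10.8-fold higher level. It was 4.81 without control 55 and 2.75 without control 69. Mycl and the summed dendritic cell genes had the same order over the 4 libraries, highest in knockout 63, then knockout 51, control 55 and control 69. The part of dendritic cell transcripts in the Mycl result was not tested.

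Myc, the member that most cells use during growth, was at 166 CPM in knockout 51 and 165 CPM in knockout 63, against 83.1 and 127 CPM in controls 55 and 69. Both knockouts lay above both controls and nearly coincided, while the controls differed. The log2 fold change was 0.66 ± 0.22 (SE) and did not pass the threshold (edgeR adjusted p = 0.0898). Myc passed with DESeq2 (adjusted p = 0.0481) and without a filter on low counts (edgeR adjusted p = 0.0446). In limma-voom, and in limma on the authors' normalized values, only 1 member was called higher, as in the main fit. With a library left out, the log2 fold change of Myc ranged from 0.42 to 0.996. Each genotype held 1 female and 1 male, and with sex as a block, a fit chosen after seeing the data, Myc also passed (edgeR adjusted p = 0.0306). The low control 55 also had the lower level of DNA replication genes among the controls. These 22 genes summed to 4780 and 3900 CPM in knockouts 51 and 63, against 3632 and 5736 CPM in controls 55 and 69. The part of replicating cells in the level of Myc was not tested. Mycn, the paralog used in stem and progenitor cells, was scarce, at 2.65 and 6.94 CPM in the knockouts and 7.49 and 5.64 CPM in the controls. Its groups overlapped (log2 fold change -0.46 ± 0.51, SE, edgeR adjusted p = 0.557), and without knockout 51 the log2 fold change was 0.078.

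Max, the shared dimer partner, was at 158 and 138 CPM in the knockouts, against 127 and 123 CPM in the controls. The log2 fold change was 0.24 ± 0.13 (SE) and did not pass (edgeR adjusted p = 0.246). Both knockouts lay above both controls, as they did for 33.0% of all tested genes.

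The MXD genes were lower in the knockout in 4 of 4 cases, of which 3 passed, against 10.9% of all genes called lower. Mxd4 was at 52.6 and 45.0 CPM in knockouts 51 and 63, against 94.6 and 111 CPM in controls 55 and 69. Its log2 fold change was -1.07 ± 0.16 (SE; edgeR adjusted p = 0.0130). Mxi1, known as a SIN3-recruiting repressor of MYC activity, was at 32.4 and 35.0 CPM in the knockouts, against 61.8 and 67.9 CPM in the controls. For both genes the gap between the genotypes was wider than the gap between mice of either genotype. Mxi1 had a log2 fold change of -0.94 ± 0.15 (SE; edgeR adjusted p = 0.0157). Without knockout 63 the adjusted p was 0.0719 for Mxd4 and 0.0700 for Mxi1, and without knockout 51 it was 0.0818 for Mxi1.

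Mxd3, the family member known from cells in S phase, was at 21.8 and 16.7 CPM in knockouts 51 and 63, against 33.2 and 48.3 CPM in controls 55 and 69. The groups did not overlap, but on a ratio scale the controls lay farther apart than those of Mxd4 and Mxi1. The log2 fold change was -1.08 ± 0.26 (SE; edgeR adjusted p = 0.0387). The call was lost without control 69 (0.0727), without knockout 51 (0.0725) and without knockout 63 (0.161). Exons of Mxd3 overlap those of the antisense gene Prelid1, and the strand setting of the counting is not given in the sources used here. Prelid1 had a log2 fold change of 0.01 ± 0.20 (SE; edgeR adjusted p = 0.967). Mxd1, the family member known from differentiating myeloid cells, was at 43.4 and 28.9 CPM in the knockouts, against 50.2 and 49.7 CPM in the controls. Its log2 fold change was -0.47 ± 0.23 (SE; edgeR adjusted p = 0.204).

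Beside the MXD genes, 20 genes of mitosis summed to 2311 and 1761 CPM in knockouts 51 and 63, against 3938 and 4462 CPM in controls 55 and 69. Against 10.9% of all genes called lower, 19 of the 20 fell (median log2 fold change -1.12). That count was 15 without knockout 51, 4 without knockout 63 and 12 in a fit that paired each knockout with the control of the other sex. Mxd3 and Mxd4 followed the order of this sum and of the B-lineage sum over the 4 libraries, highest in control 69, then control 55, knockout 51 and knockout 63. Mxi1 and Mxd1 did not. Mxi1 was higher in knockout 63 (35.0 CPM) than in knockout 51 (32.4 CPM). Mxd1 was slightly higher in control 55 (50.2 CPM) than in control 69 (49.7 CPM). The part of either set of cells in the fall of the MXD genes was not tested.

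The large MAX partners changed least among the repressors. Mnt, which represses in growing and resting cells alike, was at 42.2 and 36.5 CPM in the knockouts, against 44.9 and 53.6 CPM in the controls (log2 fold change -0.33 ± 0.18, SE, edgeR adjusted p = 0.241). Mga, which joins MAX to a variant Polycomb complex, was at 171 and 186 CPM in the knockouts, against 205 and 163 CPM in the controls. Its groups overlapped, with a log2 fold change of -0.04 ± 0.16 (SE; edgeR adjusted p = 0.879) that was 0.018 without knockout 51 and 0.17 without control 55.

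**Figure D2:**
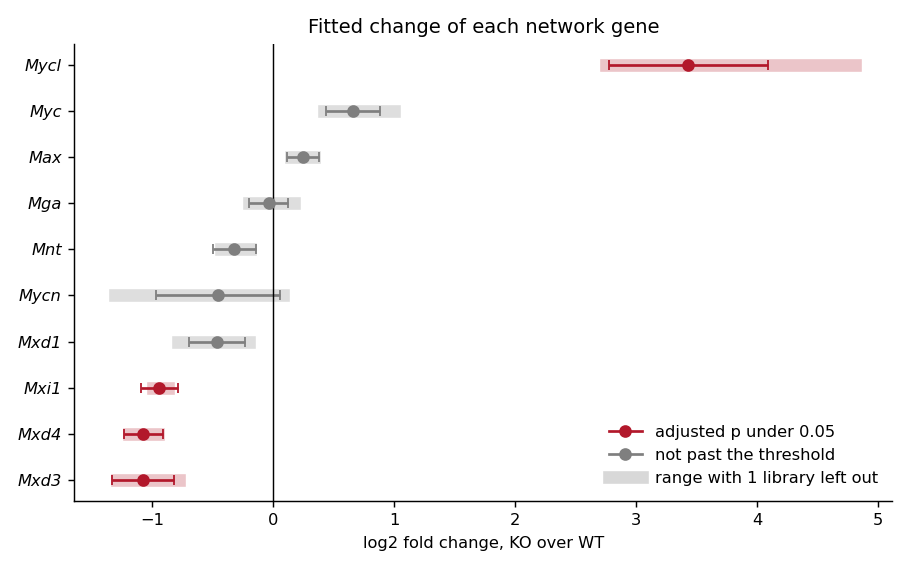
Fitted log2 fold change (knockout over control) of each network gene, with its standard error as thin bars and, as a wide band, the range of the fold change when each library was left out in turn. Mycl lies at 3.43, Mxi1, Mxd4 and Mxd3 lie between -0.94 and -1.08, and the bands of Mycn and Mga cross 0.

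Levels of different genes were compared as CPM per kilobase of annotated exon, with all annotated exons of a gene merged. The order depended on this length. In mean CPM without it, Mga was highest, at 179 in the knockouts and 184 in the controls. On that scale Mxd4 (103 CPM) lay above Mxd3 (40.8 CPM) in the controls. The values that follow are per kilobase. In the knockouts Myc was highest at 61.0 ± 0.162 CPM per kilobase (SD, n = 2), followed by Max at 41.2 ± 3.92 and Mycl at 34.5 ± 7.16, and libraries of the last pair overlapped. In the controls Myc (38.7 ± 11.5 CPM per kilobase) and Max (34.8 ± 0.812) overlapped at the top, and Mxd3 came next at 17.2 ± 4.50, above Mxd4 at 12.1 ± 1.36. Mycl held rank 3 in the knockouts and rank 9 in the controls, where its 3.18 ± 2.72 CPM per kilobase was not separated from the 1.99 ± 0.397 of Mycn, the lowest member in both genotypes. Mga, Mnt, Mxd3, Mxd4, Mxd1 and Mxi1 lay between 4.94 and 11.6 CPM per kilobase in the knockouts, and Mnt and Mxd3, or Mxd4, Mxd1 and Mxi1, were not separated from their neighbours.

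The balance of the families was taken as the summed level of Mxd1, Mxd3, Mxd4 and Mxi1 over that of Myc, Mycn and Mycl, in CPM per kilobase. MXD transcripts summed to 26.3 and 21.6 in knockouts 51 and 63, against 41.3 and 50.4 in controls 55 and 69. MYC transcripts summed to 91.4 and 103 in the knockouts, against 38.0 and 49.8 in the controls. The MXD to MYC ratio was thus 0.288 and 0.210 in the knockouts and 1.09 and 1.01 in the controls. On this scale both kinds of transcript were about level in the controls, but the level of the ratio depended on the scale. In CPM without division by length it was 0.523 and 0.378 in the knockouts, against 2.16 and 2.01 in the controls, and with Mnt and Mga in the MXD sum (per kilobase) it was 0.510 and 0.405, against 1.70 and 1.46. On each of the 3 scales both knockouts lay below both controls. The mean log2 ratio differed by -2.09 (knockout minus control). A two-sided exact permutation test gave p = 0.333, the smallest that 2 against 2 libraries allow. Mycl made up 32.2% and 38.6% of the MYC sum in the knockouts, against 13.5% and 2.52% in the controls.

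**Figure D3:**
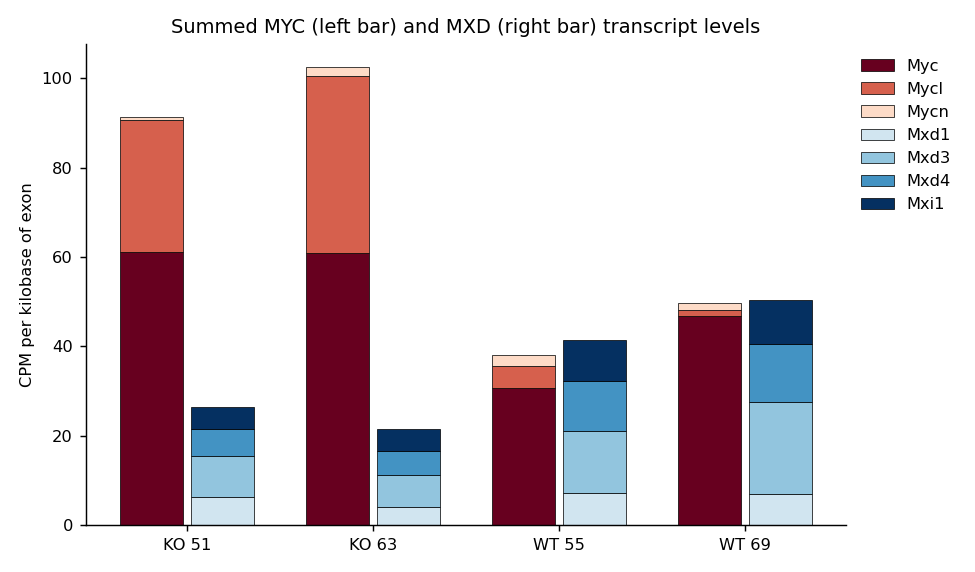
Summed levels of the MYC genes (left bar, red shades) and MXD genes (right bar, blue shades) in CPM per kilobase of exon, stacked by gene, in each library. MYC sums are 91.4 and 103 in the knockouts and 38.0 and 49.8 in the controls, while MXD sums are 26.3 and 21.6 in the knockouts and 41.3 and 50.4 in the controls.

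Promoter sequences of 9 of the 10 members were taken from RefSeq (build GRCm38.p6), each covering 250 bases before to 50 bases after a start, with 3 starts for Mxi1. They were searched on both strands for CACGTG (the MYC-MAX E-box), CAGGTG (an E-box of E proteins) and GTAAACA (bound by FOXO factors). CAGGTG was found in 20.2% of all 32851 promoters of this length, CACGTG in 7.15% and GTAAACA in 3.65%. CACGTG reads the same on both strands, and no matches in the members' promoters shared letters (0 pairs). CACGTG was present in 3 of the 9 members, Max, Mnt and Mxd4, and of these Mxd4 alone passed the test. Counted by gene, 11.5% of all tested genes with a promoter had CACGTG. The windows are shown to let the E-box and its flanks be compared, 5′ to 3′ on the strand of the gene, with the motif in capitals.
Mxd4 (chr5:34187912-34187941, minus strand, 219 bases upstream of the start): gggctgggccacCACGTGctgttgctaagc
Mnt (chr11:74830789-74830818, plus strand, 123 bases upstream): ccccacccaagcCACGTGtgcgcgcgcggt
Max (chr12:76962234-76962263, minus strand, 3 bases upstream): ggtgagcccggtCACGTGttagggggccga
Mxi1 (chr19:53329452-53329482, plus strand, GTAAACA 231 bases upstream of one start): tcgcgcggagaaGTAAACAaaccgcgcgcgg
The Mycl promoter is shown whole because Mycl changed most (chr4:122995681-122995980, plus strand). Its capitals mark the complement of CAGGTG, 106 bases upstream of the start.
Mycl: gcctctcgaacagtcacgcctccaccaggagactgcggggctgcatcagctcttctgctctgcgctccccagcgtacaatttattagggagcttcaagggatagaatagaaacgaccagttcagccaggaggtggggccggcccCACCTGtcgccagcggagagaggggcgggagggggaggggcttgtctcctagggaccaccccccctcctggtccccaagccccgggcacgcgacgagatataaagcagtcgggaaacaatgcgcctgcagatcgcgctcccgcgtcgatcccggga

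Few partners of the network passed the test. Of 20 MYC cofactor genes, 2 fell, namely Brd8 (131 and 116 CPM in the knockouts, against 185 and 197 CPM in the controls) and Taf9 (39.8 and 53.2 CPM, against 73.9 and 89.4 CPM), which encode subunits of acetyltransferase complexes. This count lay near the 10.9% of all genes called lower. It was 0 when either knockout library was left out or mice of opposite sex were paired as blocks, and 5 with sex as a block. Among 18 SIN3, histone deacetylase and NCoR corepressor genes, edgeR called 0 higher and 0 lower, with 0 above and 3 below at an unadjusted p under 0.05. DESeq2 called 1 of them lower, and limma-voom and limma on the authors' values called 0. Of 13 genes of the MGA complex, which shares Hdac1 and Hdac2 with the corepressors, 2 fell, against 10.9% of all genes called lower. These were Cbx1 and Yaf2, which fell by 0.54 and 0.70 on the log2 scale. Yaf2 missed the threshold without a filter on low counts (edgeR adjusted p = 0.0544). The parallel MLX branch, whose members bind the same E-boxes in response to glucose metabolites, differed. Mlxip, which encodes MondoA, was at 182 and 141 CPM in the knockouts, against 436 and 392 CPM in the controls (log2 fold change -1.36 ± 0.18, SE, edgeR adjusted p = 0.0107). Its dimer partner Mlx had a log2 fold change of 0.10 ± 0.18 (SE).

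Genes that act on the MYC protein fell in 5 of 19 cases, by edgeR at the same threshold, against 10.9% of all genes. Pim1, a kinase that stabilises MYC, was at 160 and 163 CPM in the knockouts, against 391 and 346 CPM in the controls. Ppp2r5a, a phosphatase subunit that promotes its destruction, was at 151 and 130 CPM against 306 and 256 CPM. Btrc, a ubiquitin ligase subunit, was at 66.9 and 57.1 CPM against 112 and 107 CPM. Genes that stabilise MYC and genes that destabilise it thus both stood among those that fell, and the other 2 were Aurka, also a gene of the mitosis list, and Fbxo32. The count of 5 was 3 without knockout 51 and 1 without knockout 63, where Pim1 alone passed.

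Genes known as MYC targets were taken as 3 lists. Of 35 genes of the nucleolus and ribosome production, 13 rose and 0 fell in edgeR, with a median log2 fold change of 0.49, against 11.3% of all genes called higher and a median of -0.02. At an unadjusted p under 0.05, 19 were higher and 0 lower, and DESeq2 called 16 higher and 0 lower. Gnl3, a nucleolar GTPase, was at 160 and 188 CPM in the knockouts, against 89.4 and 89.3 CPM in the controls (log2 fold change 0.96 ± 0.14, SE, edgeR adjusted p = 0.0126). Wdr43, needed for early steps of ribosomal RNA processing, was at 178 and 179 CPM, against 106 and 107 CPM. Utp20, of the small subunit processome, was at 103 and 99.4 CPM, against 62.8 and 63.0 CPM. The replicates of a genotype nearly coincided for Wdr43 and Utp20, and for Gnl3 in the controls only. Npm1, the abundant nucleolar chaperone, was at 1384 and 1362 CPM in the knockouts, against 770 and 846 CPM in the controls. With 1 knockout library left, the count of 13 was 1 without knockout 51 and 0 without knockout 63, and it was 8 without control 55. The nucleolar genes summed to 6814 and 6772 CPM in the knockouts, against 4541 and 4899 CPM in the controls.

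CACGTG stood in the promoters of 4 of the 11 nucleolar genes that rose and had a promoter sequence, and in 3 of the 19 that did not pass, against 11.5% of all tested genes with a promoter. The windows of the 4 that rose are given as examples of the E-box, with the motif in capitals. Those of Pes1, Grwd1 and Imp4, which had the E-box but did not pass, are not shown.
Nop2 (chr6:125131811-125131840, plus strand, 60 bases upstream of the start): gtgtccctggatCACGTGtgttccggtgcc
Wdr43 (chr17:71616220-71616249, plus strand, 17 bases downstream): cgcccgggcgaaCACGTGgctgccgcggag
Utp20 (chr10:88826765-88826789, minus strand, 37 bases downstream): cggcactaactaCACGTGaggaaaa
Mybbp1a (chr11:72441355-72441376, plus strand, 40 bases downstream): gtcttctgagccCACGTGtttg
Nop2, an RNA methyltransferase gene, and Mybbp1a, a nucleolar regulator gene, had log2 fold changes of 0.65 ± 0.14 and 0.77 ± 0.16 (SE; edgeR adjusted p = 0.0317 and 0.0259).

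Targets outside the nucleolus were more mixed. Of 23 tested genes of nucleotide and polyamine synthesis, 3 rose and 0 fell in edgeR, with a median log2 fold change of 0.37. This count lay near the 11.3% of all genes called higher. In this list 10 were higher and 0 lower at an unadjusted p under 0.05. DESeq2 called 6 higher and 0 lower. Srm, which encodes spermidine synthase, was at 106 and 99.3 CPM in the knockouts, against 33.6 and 53.5 CPM in the controls. The purine synthesis gene Ppat and the nucleoside diphosphate kinase gene Nme2 rose by log2 fold changes of 0.85 ± 0.17 and 0.95 ± 0.18 (SE). No gene of this list passed when either knockout library was left out (0 of 23 in both fits).

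Of 24 tested genes of metabolism and transport, 7 rose and 1 fell, with a median of 0.39. Among all genes tested, 11.3% were called higher and 10.9% lower. The amino acid transporter gene Slc7a5 was at 161 and 160 CPM in the knockouts, against 46.8 and 59.7 CPM in the controls (log2 fold change 1.595 ± 0.163, SE, edgeR adjusted p = 0.00656). Slc1a5, which encodes a glutamine transporter and is a MYC target in other cells, went the other way, at 172 and 153 CPM in the knockouts against 743 and 568 CPM in the controls (log2 fold change -2.01 ± 0.20, SE, edgeR adjusted p = 0.00650). The mitochondrial chaperonin gene Hspe1 was at 175 and 157 CPM against 88.9 and 86.5 CPM. Ldha, of lactate production, was at 660 and 550 CPM against 248 and 361 CPM. The count of 7 was 2 when either knockout library was left out and 4 without control 55.

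Of 11 tested genes of cell cycle arrest and growth arrest, several of which MYC is known to repress, 5 fell and 0 rose in edgeR. Among all genes tested, 10.9% were called lower and 11.3% higher. The median log2 fold change of the list was -1.10. At an unadjusted p under 0.05, 7 were lower and 0 higher, and DESeq2 called 6 lower and 0 higher. Cdkn1b, an inhibitor of cyclin-dependent kinases, was at 94.5 and 109 CPM in the knockouts, against 293 and 249 CPM in the controls (log2 fold change -1.42 ± 0.16, SE, edgeR adjusted p = 0.00753). Cdkn2c, an inhibitor of CDK4 and CDK6 kinases, was at 40.0 and 37.6 CPM, against 73.7 and 104 CPM. Gadd45a, a stress-induced arrest gene, was at 4.19 and 9.86 CPM, against 42.4 and 25.9 CPM. Btg2 and Txnip also fell, and Txnip is a known target of MondoA, the product of Mlxip. Cdkn1a, the arrest gene best known as repressed by MYC, was at 59.3 and 62.9 CPM in the knockouts and 40.2 and 86.6 CPM in the controls, where the groups overlapped. The count of 5 was 3 without knockout 51 or control 55 and 2 without knockout 63.

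**Figure D4:**
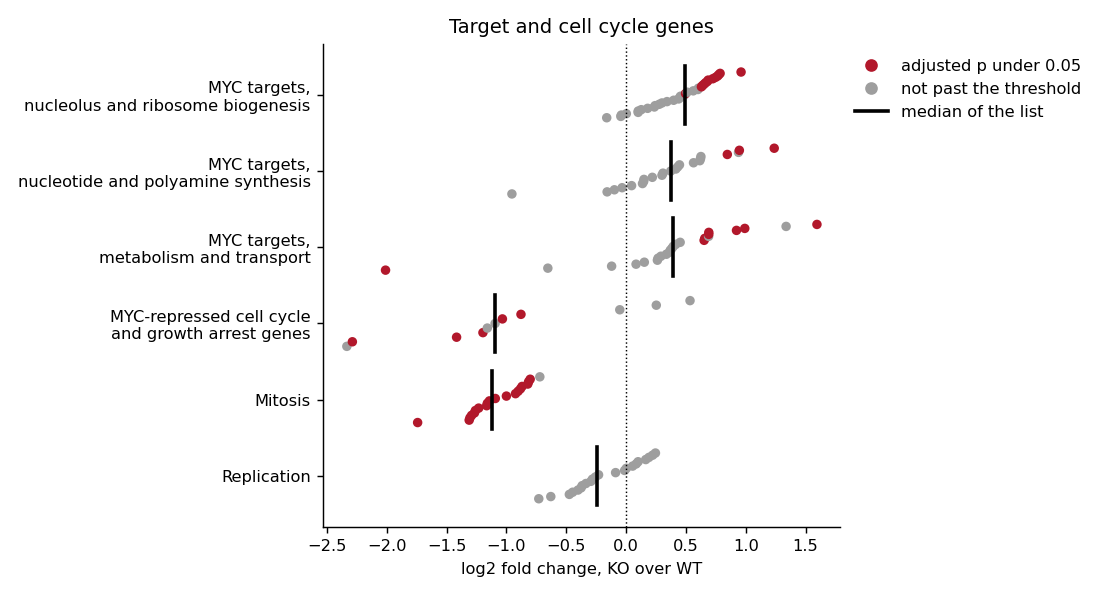
Log2 fold change (knockout over control) of each tested gene in the MYC target lists, the growth arrest list and the mitosis and replication lists, with genes past the threshold in red and the list median as a black line. Medians are 0.49, 0.37 and 0.39 for the target lists, -1.10 for growth arrest genes, -1.12 for mitosis genes and -0.24 for replication genes.

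Target genes and division genes did not move alike. The 3 target lists had positive medians, while mitosis genes fell in 19 of 20 cases, against 10.9% of all genes called lower. Of 22 replication genes edgeR called 0, with 2 lower at an unadjusted p under 0.05. DESeq2, limma-voom and limma on the authors' values also called 0, and edgeR with sex as a block called 3 lower. The replication sum was 3632 CPM in control 55 and 5736 CPM in control 69. With controls this far apart, the count of 0 does not show that replication genes were unchanged. Cells of the other lineages listed above use many of the target genes too, and their part in the target results was not tested.

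**Figure D5:**
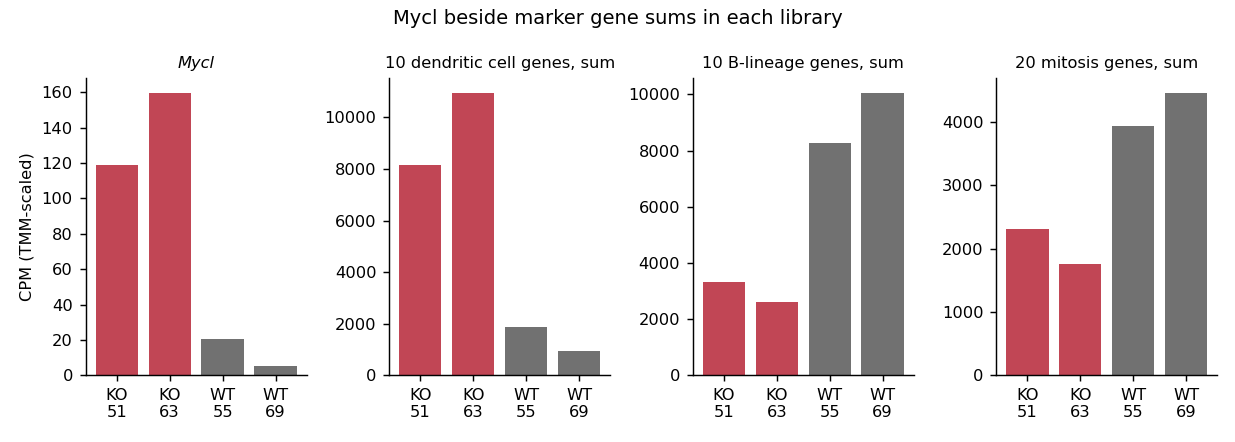
Mycl in CPM beside the summed CPM of 10 dendritic cell genes, 10 B-lineage genes and 20 mitosis genes in each library, knockouts in red and controls in grey. Mycl and the dendritic cell sum are highest in knockout 63 (160 and 10964 CPM), and the B-lineage and mitosis sums are highest in control 69 (10065 and 4462 CPM).

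The genes with profiles closest to those of Myc and of the 4 members that passed were found by the Euclidean distance of mean-centred log2 CPM over the 4 libraries. For Mycl these were Cyp7b1, D5Ertd615e and Cd209d, at distances of 0.13, 0.14 and 0.23. The first pair stayed near or below 3 CPM, and Cd209d was at 33.8 and 43.5 CPM in the knockouts, against 6.85 and 1.54 CPM in the controls. For Mxd3 they were Ncaph, Rmi2 and Cd81 (0.04, 0.06 and 0.06), for Mxd4 Msra, Ska3 and Esco2 (0.05, 0.06 and 0.07), and for Mxi1 9430091E24Rik, Fah and Ppp4r1l-ps (0.02, 0.04 and 0.06). For Myc they were Slc25a13, Ccdc155 and Kptn (0.04, 0.05 and 0.07).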

How the data were processed

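RNA from sorted pro-B cells of 4 mice was sequenced after NEBNext low input library preparation, per the labels' protocols. Per the submitters' processing notes, builds were GRCm38 and mm10, and featureCounts (Subread 2.0.0), STAR 2.7.4a, DESeq2, deepTools 3.3.2 and SAMtools 1.10 were used. The sources used here do not give the annotation, strand setting or handling of multiply aligned reads. The authors deposited raw counts for 24411 gene symbols. They also deposited a table of normalized signal for 13021 rows, which served in 1 alternative. It scales each library's raw counts by a constant, namely 0.816 and 1.10 in knockouts 51 and 63 and 1.01 and 1.22 in controls 55 and 69. Dates replace symbols in 20 of its rows.

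Genotypes were compared with edgeR 4.0.16 under R 4.3.3 (filterByExpr with a minimum count of 10 and minimum total of 15, TMM, glmQLFit and glmQLFTest over all 4 libraries without covariates, Benjamini-Hochberg over 13507 genes). CPM use the TMM-scaled totals, and a count of 3 equals 0.0743 to 0.113 CPM. Standard errors are the log2 fold change over the square root of F. Exon lengths (all annotated exons merged) and overlaps are from GENCODE M21 on GRCm38, where 23379 symbols were found. Chi-square per gene averaged 61.0 between the knockouts and 84.5 between the controls, so no library repeated another. The procedure was tested on simulated data.

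The members and gene lists were chosen with earlier results of these data known. Named by rule were the members, Tnpo3, the 3 genes with the lowest adjusted p in each partner or target list, and the 3 closest profiles. Other genes were chosen after their values were seen. Alternatives were DESeq2 1.42.0, its size factors in edgeR, unscaled totals, a filter of 1 CPM in 2 libraries with a mean count of 50, no filter, each library left out, a false discovery rate of 0.1, limma-voom (limma 3.58.1), and limma on the deposited normalized values (log2 after adding 1). Chosen after seeing the data were the sex of each mouse, read from Xist and Y-linked genes, as a block, and the opposite pairing of the mice.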

Additional observations from a re-analysis of the deposited data

How the results depend on the processing

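No paired analysis was possible from the labels because no mouse number occurs in both genotypes. The blocks given here rest on sex read from the data, with 1 female and 1 male per genotype. With a library left out, the lone library of a genotype is assumed to vary like the others. Over these fits, log2 fold changes ranged from 0.42 to 0.996 for Myc, -1.31 to 0.078 for Mycn, 2.75 to 4.81 for Mycl, 0.14 to 0.34 for Max, -0.79 to -0.20 for Mxd1, -1.29 to -0.78 for Mxd3, -1.19 to -0.96 for Mxd4, -0.998 to -0.88 for Mxi1, -0.43 to -0.19 for Mnt, -0.20 to 0.17 for Mga and -1.16 to -0.94 for Tnpo3 (edgeR adjusted p = 0.0603 without knockout 63). Members called higher ranged from 1 to 2 and lower from 0 to 3. All genes called ranged from 747 to 1649 higher and from 530 to 1580 lower. Nucleolar targets called higher ranged from 0 to 13, nucleotide targets from 0 to 11 (0 to 1 lower), metabolism targets from 2 to 6, and arrest genes called lower from 2 to 7 (0 to 1 higher). The MXD to MYC log2 difference ranged from -2.32 to -1.87.

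Myc also passed without a filter (log2 fold change 0.69), with DESeq2 (0.67), at a false discovery rate of 0.1 (0.66) and with sex as a block (0.69, edgeR adjusted p = 0.0306), which made 2 members called higher in each. Within sex the log2 ratio of Myc was 0.99 between females and 0.39 between males. With the opposite pairing, Mxd3 was at -1.07 and did not pass (edgeR adjusted p = 0.0813), 985 genes were higher and 821 lower, and 1 nucleolar, 1 nucleotide and 2 metabolism targets were called higher. At a false discovery rate of 0.1, 2232 genes were lower. Nucleotide targets called higher were 6 without a filter and with DESeq2, 5 with limma-voom and on the authors' values, 7 at a false discovery rate of 0.1 and 10 with sex as a block, where metabolism targets were 11 higher and 2 lower. The MXD to MYC log2 difference was -1.79 with Mnt and Mga in the MXD sum. The cause of these shifts was not tested. Of 406 values of the 29 named partner and target genes under alternatives, 348 kept direction and call, 46 lost the call, 11 gained it and 1 reversed (Mlx, -0.068 without control 69, over a range of -0.068 to 0.33 with a library left out). Of 168 counts for the other lists, 126 stayed within 1.5 times. Counts from 2 mice per genotype limit the precision, above all for Mycn.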

Other observations

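Other bHLH genes whose proteins bind E-boxes moved both ways. Of 14 tested, 3 rose and 3 fell in edgeR, with a median log2 fold change of 0.09. Among all genes tested, 11.3% were called higher and 10.9% lower. Arntl, which encodes the clock activator BMAL1, was at 41.1 and 20.1 CPM in knockouts 51 and 63, against 210 and 309 CPM in controls 55 and 69 (log2 fold change -3.08 ± 0.40, SE, edgeR adjusted p = 0.00999). Arnt, a dimer partner of hypoxia factors, was at 45.7 and 46.0 CPM in the knockouts, against 77.1 and 70.7 CPM in the controls. Srebf2, which encodes an activator of cholesterol synthesis genes, was at 369 and 432 CPM in the knockouts, against 212 and 224 CPM in the controls (log2 fold change 0.87 ± 0.15, SE, edgeR adjusted p = 0.0190). Srebf1 and Mitf also rose and Usf1 also fell. Srebf2 did not pass without knockout 63 (edgeR adjusted p = 0.101), and the call of Arnt was lost when control 55 was left out (0.0559) and when knockout 51 or 63 was (0.134 and 0.151).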
